A study of Mus musculus with 217 samples.

Results

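The mouse amino acid transporter families Slc1, Slc3, Slc6, Slc7, Slc36, Slc38 and Slc43 hold 61 of the 52550 genes in the deposited counts. Within these families a gene is a member by its symbol alone, whatever its values. The families differ in size, with 19 members in Slc6, 15 in Slc7, 11 in Slc38, 7 in Slc1, 4 in Slc36, 3 in Slc43 and 2 in Slc3.

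The study sequenced RNA bound to the ribosomes of endothelial cells (ECs) of brain, lung and heart. All mice were adult C57BL/6J with the genotype Cdh5CreERT2/+; Rpl22HA/+ (RiboTagEC), in which tamoxifen activates a Cre recombinase driven by the EC promoter Cdh5, and the recombined cells make ribosomes with an HA tag. The labels give 1 tamoxifen course for all groups, 5 mg by gavage on alternate days, given 4 times to mice aged 4-6 weeks. LPS, a bacterial endotoxin that sets off systemic inflammation, was injected intraperitoneally at 10 mg/kg, and tissues were taken 6, 24, 48, 72 or 168 hr later. The 0 hr mice are the controls, which per the study's methods received PBS. Tagged ribosomes were precipitated from homogenates of whole tissue with an antibody against HA, so any carried-over RNA of other cells would be counted as well. The paper gives qPCR enrichment and rank comparisons with whole tissue as evidence of purity. It also reports genes of the surrounding tissue in single ECs of other data sets. Carry-over was not tested here.

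After runs of the same library were summed, 80 of 98 libraries had at least 3% of their reads on genes and were used. At 0, 6, 24, 48, 72 and 168 hr these were 5, 5, 4, 6, 4 and 4 brain libraries, the same numbers of heart libraries, and 4, 4, 2, 6, 4 and 4 lung libraries. The labels do not say which libraries came from the same mouse, and p-values measure the spread between these libraries. Brain libraries held 7226796 to 32891759 counts on genes, heart libraries 8136031 to 33050750 and lung libraries 284457 to 43417945. The precision therefore differed most in lung, where a count of 3 stood for 0.0942 CPM (counts per 1000000 counts on genes, after TMM scaling) in the deepest 6 hr library and for 86.7 CPM in the shallowest. Such floors, and the sampling of reads in general, cover counting error only. In 3 of the 4 lung libraries at 6 hr (replicates 1, 2 and 4) between 3.40% and 8.12% of the reads lay on genes, against 33.9% in replicate 3. Replicates 6 of brain and 5 of heart at 6 hr, of the same mouse by the file names, had levels of many members near those of 0 hr. Lung replicate 4 at 6 hr is of that mouse too by the file names. Its neutrophil markers summed to 28.9 CPM, under its floor, against 1900-3850 CPM in the other lung libraries of that time. Sex-linked genes also moved with time: Xist exceeded Ddx3y in 3 of 14 libraries at 0 hr, 8 of 14 at 6 hr, 6 of 10 at 24 hr, 0 of 18 at 48 hr, and 12 of 12 at both 72 and 168 hr. The part of sex in the changes was not tested. By the pattern of the file names the kept libraries fall into file series 1 (27 libraries), 2 (33) and 4 (20). Series 4 holds no library of 0 or 6 hr in any tissue, so series and time are partly confounded from 24 hr on.

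Amino acid transporters carry the building blocks of protein across the plasma membrane. The Slc7 light chains such as Slc7a5 (LAT1), which exchanges large neutral amino acids including leucine and thyroid hormone, and Slc7a11 (xCT), which exchanges cystine for glutamate, reach the membrane as heterodimers with an Slc3 heavy chain, usually Slc3a2 (CD98hc, 4F2hc). Slc7a1, Slc7a2 and Slc7a3 (CAT-1, CAT-2 and CAT-3) carry arginine, lysine and ornithine without a heavy chain. Slc1 members take up glutamate or small neutral amino acids, Slc6 members carry neurotransmitters, taurine, creatine and glycine with sodium and chloride, Slc38 members carry glutamine and alanine with sodium, and Slc36 members carry small amino acids with protons. In the brain, tight junctions close the path between ECs, and Slc7a5 is among the best known transporters of the blood-brain barrier. Several genes of these families are known targets of Atf4 and its partners, which bind a C/EBP-ATF response element when amino acids are short or the cell is stressed.

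The promoters of Slc7a11, Slc1a4 and Slc7a7 are shown because they hold a match to the core of that element and their levels are followed in the results. The core was searched as TGATGNAA on both strands (TTNCATCA when read from the other strand) in RefSeq promoters of GRCm38.p6, from 250 bases before to 50 bases after each annotated start. Of the 61 members 43 had such a promoter and 4 of them (9.3%) a match, against 4.51% of 27025 genes. Over the promoter windows themselves, 5 of 64 windows of members (7.81%) and 3.97% of 32851 windows in all held a match. The remaining gene was Slc6a21, which had too few counts to be tested. Matches are capitalised, each sequence is read 5′ to 3′ on the minus strand, and a match is a description of letters, not a measured site.
Slc7a11, chr3:50443614-50443713, the 100 bases before the start: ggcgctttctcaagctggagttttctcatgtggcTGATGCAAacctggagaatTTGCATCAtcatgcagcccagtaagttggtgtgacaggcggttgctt
Slc1a4, chr11:20332694-20332793, 80 bases before and 20 after the start: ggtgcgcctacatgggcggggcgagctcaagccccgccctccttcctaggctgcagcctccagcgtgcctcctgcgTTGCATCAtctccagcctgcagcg
Slc7a7, chr14:54417925-54418094, 150 bases before and 20 after its upstream start: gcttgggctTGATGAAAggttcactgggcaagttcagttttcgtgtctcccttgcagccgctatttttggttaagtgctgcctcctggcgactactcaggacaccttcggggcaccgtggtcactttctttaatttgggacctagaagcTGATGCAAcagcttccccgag
In Slc7a11 the first match began 66 bases before the start and the second, on the other strand, 47 bases before it. The match in Slc1a4 began 4 bases before the start, and those in Slc7a7 began 141 bases and 1 base before it.

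The first question was how the members are distributed over the ECs of the 3 tissues at 0 hr. The contrast is the level in a tissue minus the mean level in the other 2, and a member is called where the adjusted p of edgeR's quasi-likelihood test over all genes is under 0.05. Of the 61 members 49 had enough counts to be tested and 12 did not. In brain 34 of the 49 were higher and 5 lower than in the other tissues, while 35.1% of all genes tested were higher and 23.4% lower. The median log2 fold change of the members in brain was 2.77, and that of all genes 0.22. In lung 10 were higher and 20 lower, against 28% and 34.4% of all genes, with medians of -1.11 for members and -0.35 for all genes. In heart 5 were higher and 26 lower, against 27.7% and 30.5%, with medians of -2.5 and -0.07. The level in brain enters the mean with which lung and heart are compared. A call there need not hold against each other tissue. Fewer members were called for lung and heart when a difference from each of the other 2 tissues was required. The members higher in brain came from all 9 groups of roles, among them all 5 cationic transporters, 5 of 6 tested glutamate and neutral amino acid transporters of Slc1, 8 of 10 GABA, glycine, monoamine and proline carriers, 4 of 6 light chains and 4 of 9 Slc38 carriers.

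Endothelial RNA differed in amount between the tissues. The 14 endothelial markers, all detected, summed to 2920-5540 CPM in brain at 0 hr, 14400-22900 CPM in lung and 13400-15600 CPM in heart. In the same brain libraries 10 neuronal markers summed to 1320-5560 CPM, 8 astrocytic markers to 1300-3210 CPM and 6 oligodendrocytic markers to 858-5860 CPM. The corresponding sums in heart were 66.4-124, 281-408 and 41.9-61 CPM. Lung libraries held 6450-12700 CPM of 8 epithelial markers, and heart libraries 3300-6420 CPM of 8 cardiomyocyte markers. The part of these cells in the members' levels was not tested, and in precipitates of whole tissue fewer cells of a type and less RNA per cell cannot be told apart.

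Per kilobase of exon, Slc7a5 (ENSMUSG00000040010, chr8:121881150-121907694) had the highest level of all members in brain, with a median of 169 RPKM (the CPM level per kilobase of exon) and a range of 141-218 in 5 libraries. Its partner Slc3a2 (ENSMUSG00000010095, chr19:8706882-8723369) came next at 105 RPKM (69.2-141), and its highest library lay at the level of the lowest one of Slc7a5. The GABA and taurine carrier Slc6a13 followed at 81.3 RPKM (34.1-132), which overlaps the range of Slc3a2. The astrocytic glutamate transporter Slc1a2 came next at 50.6 RPKM, but ran from 13.8 to 184 RPKM over the 5 libraries. Then came the glutamine carrier Slc38a3 at 43.6 RPKM (34.8-54.2) and the taurine transporter Slc6a6 at 35.6 RPKM (27.7-120), whose ranges overlap. Lung was led by the noradrenaline transporter Slc6a2 at 65 RPKM (22.2-78.3), followed by Slc3a2 at 27.7 (22.6-243) and Slc43a3, a carrier of purine nucleobases, at 15.6 RPKM (9.87-202). These 3 ranges overlap, and the highest values of Slc3a2 and Slc43a3 came from replicate 4. Heart was led by Slc43a3 at 83.6 RPKM (69.7-109) and Slc6a6 at 57.2 (49.2-91.5), overlapping each other, before Slc3a2 at 34.3 RPKM (30.9-38.7) and Slc38a10, a little-studied member of the glutamine carrier family, at 23 (22.5-23.4). The heavy chain was thus among the 3 highest members in each tissue, whereas Slc7a5 stood 14th in lung at 2.65 RPKM and 10th in heart at 4.11.

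**Figure D1:**
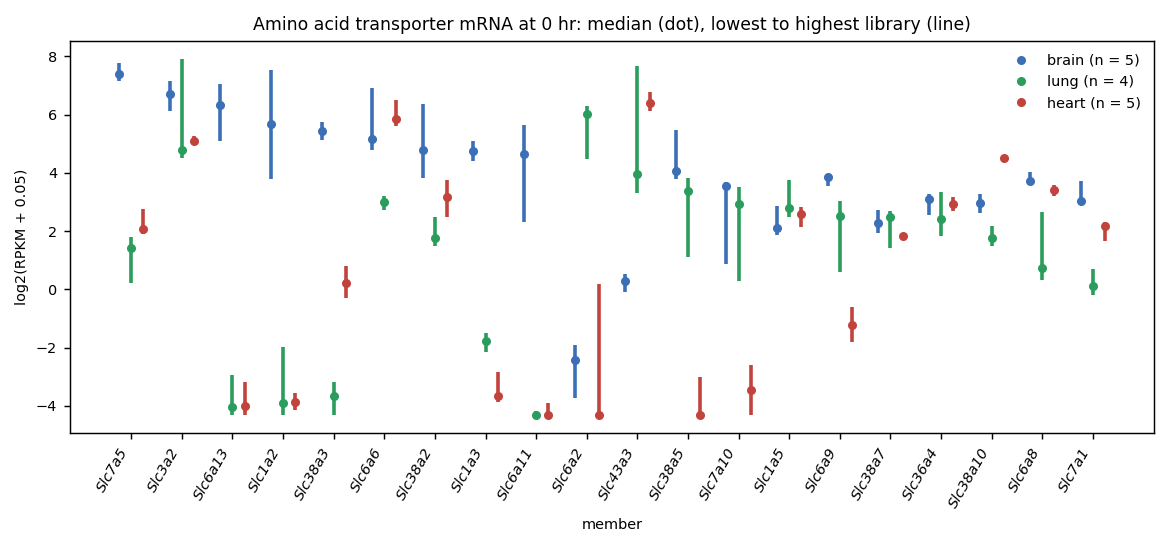
Levels per kilobase of exon at 0 hr in brain, lung and heart ECs, for 20 members that rank in the top 10 of at least 1 tissue. The vertical axis is log2(RPKM + 0.05), points are group medians and lines run from the lowest to the highest library. Slc7a5 separates brain (141-218 RPKM) from lung and heart, while Slc43a3 is lowest in brain and Slc6a2 is high in lung.

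Among the light chains, Slc7a5 was 5.61 ± 0.29 (SE, 5 brain, 4 lung and 5 heart libraries) log2 units higher in brain than in the other tissues, with an adjusted p of 2.78e-10 by edgeR. Its levels were 807, 758, 524, 626 and 583 CPM in brain, 9.56, 12.7, 10.1 and 4.14 CPM in lung and 24.8, 13.6, 14.1, 15.3 and 23 CPM in heart. No brain library came near those of the other tissues, and heart exceeded lung in all libraries (lung minus heart -0.96 ± 0.33, adjusted p = 0.0197, edgeR). The heavy chain Slc3a2 differed far less, at 244-498 CPM in brain and 109-137 CPM in heart (brain against the others 1.07 ± 0.41, adjusted p = 0.0352, edgeR). In lung it stood at 86.6, 79.9, 109 and 858 CPM, the last in replicate 4. That library had 56.2% of its reads on genes, against 18.8-28.6% in the other lung libraries of 0 hr. At 168 hr Slc3a2 read 172, 720, 313 and 512 CPM in lung libraries with 23.8%, 57.1%, 50.5% and 61.0% on genes. The part of this share in the levels was not tested. Lung replicate 4 decided the sign of the lung contrast, which was 0.05 ± 0.47 with that library and -1.12 without it (adjusted p = 0.000345, edgeR). The brain call was lost as well without the covariate or without any 1 of brain replicates 1 to 4, heart replicates 1 and 2 and lung replicates 2 and 3 (adjusted p of 0.0511 to 0.0882, edgeR).

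Slc7a11 was 7.46 ± 0.61 log2 units higher in brain (adjusted p = 5.57e-08, edgeR), at 124-404 CPM against 0.391-12.2 CPM in lung and 0.0359-0.817 CPM in heart. Brain did not overlap the other tissues, while lung and heart did overlap. The light chain Slc7a8 (LAT2) was higher in brain by 4.15 ± 0.42 and lower in heart by -4.57 ± 0.54, while Slc7a7 (y+LAT1), which exchanges cationic for neutral amino acids, was higher in heart by 1.79 ± 0.24 and lower in brain by -1.22 ± 0.26. Slc7a10 (Asc-1), a carrier of serine and glycine, was higher in brain (3.41 ± 0.6) and in lung (3.86 ± 0.62) and lower in heart (-7.27 ± 0.85). Slc7a6 (y+LAT2) was lower in lung by -1.53 ± 0.4, and 4 of the 10 light chains (Slc7a9, Slc7a12, Slc7a13 and Slc7a15) had too few counts to test.

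All 5 cationic transporters were higher in brain. Slc7a1 stood at 87.3-150 CPM in brain, 35.5-56.9 CPM in heart and 9.56-18.2 CPM in lung, 3 ranges that do not overlap. It was 2.01 ± 0.18 log2 units higher in brain and 2.45 ± 0.23 lower in lung than in the other 2 tissues. Slc7a2 was 2.55 ± 0.36 higher in brain, at 46.9-108 CPM against 4.12-7.86 CPM in heart and 7.74-43.5 CPM in lung. Slc7a3, Slc7a4 and Slc7a14 were higher by 5.21 ± 0.65, 3.76 ± 0.37 and 8.06 ± 0.65.

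Both astrocytic glutamate transporters were far higher in brain. Slc1a2 (GLT-1), which clears glutamate into astrocytes, was 11.24 ± 0.57 log2 units higher in brain, where its libraries read 182, 318, 2420, 664 and 1780 CPM. Slc1a3 (GLAST), its astrocytic relative, was 8.05 ± 0.32 higher at 180-294 CPM. The 0 hr brain libraries with the highest Slc1a2, replicates 3 and 5, also had the highest sums of astrocytic markers, 3210 and 2630 CPM, and of mural markers, 1360 and 2510 CPM. Slc1a6 stood at 17.9 CPM on average in brain and had no count in any lung library at 0 hr, which makes it at least 389-fold higher when 3 counts over the lung group are taken as the floor. The neutral amino acid exchanger Slc1a4 (ASCT1) was 2.5 ± 0.29 higher in brain. Slc1a5 (ASCT2), the glutamine exchanger, ran against its family, with 14.9-29.8 CPM in brain, 23-55.9 CPM in lung and 18.2-29.6 CPM in heart. These ranges overlap, and the lung contrast of 0.63 ± 0.24 (adjusted p = 0.0345, edgeR) and the brain contrast of -0.59 ± 0.24 (adjusted p = 0.046) were lost under several settings, among them 0.34 without lung replicate 1 (adjusted p = 0.23) and -0.44 for brain without the same library (adjusted p = 0.0944).

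Several Slc6 carriers of transmitters had no count in 1 of the tissues. Slc6a12, Slc6a3 and Slc6a5, carriers of betaine and GABA, dopamine and glycine, were at least 711-fold, 165-fold and 115-fold higher than in heart on the same floor, and Slc6a7, a proline transporter, at least 641-fold higher than in lung. Slc6a13 was 11.75 ± 0.45 log2 units higher in brain, at 99-383 CPM. Slc6a2 went the other way and was 8.72 ± 1.03 higher in lung, with 139, 493, 338 and 480 CPM against 0.155-1.37 CPM in brain. In heart it had counts in 1 of 5 libraries, replicate 2, at 6.86 CPM, and that library also held 54.8 CPM of epithelial markers where the other 4 held 0.675-1.04 CPM. The glycine transporter Slc6a9 was higher in brain (3.17 ± 0.31) and in lung (1.21 ± 0.32) and lower in heart (-4.38 ± 0.39), and brain minus lung was 1.3 ± 0.38. Slc6a6 was higher in heart by 1.67 ± 0.31 and in brain by 1.19 ± 0.31, and lower in lung by -2.85 ± 0.39. Its levels of 416-774 CPM in heart and 234-1020 CPM in brain overlap (brain minus heart -0.32 ± 0.36, adjusted p = 0.475, edgeR), and both lie above the 55-78.1 CPM of lung. The creatine transporter Slc6a8 was higher in brain than in lung (2.48 ± 0.37) and lower in lung than in heart (-2.15 ± 0.36), and brain minus heart was 0.33 ± 0.31 (adjusted p = 0.387, edgeR).

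Of the sodium-coupled Slc38 carriers, Slc38a3 (SNAT3) was 7.62 ± 0.31 log2 units higher in brain, with 184-286 CPM against 3.98-8.93 CPM in heart and 0-0.313 CPM in lung. Slc38a5 (SNAT5) was high in brain (31.1-99.6 CPM) and lung (4.77-31.9 CPM), which overlap narrowly, and near 0 in heart (0-0.163 CPM). Its difference between brain and lung was 1.08 ± 0.51 (adjusted p = 0.0729, edgeR), and against heart brain was 10.33 ± 0.81 higher. Slc38a2 (SNAT2) was 2.52 ± 0.27 higher in brain and Slc38a1 (SNAT1) 4.42 ± 0.3, whereas their neighbour on chr15, Slc38a4, was not called in brain (0.81 ± 0.45, adjusted p = 0.135). Slc38a10 was 2.18 ± 0.15 higher in heart, where its 5 libraries lay between 144 and 150 CPM, against 39.1-62.1 CPM in brain and 17.9-28.5 CPM in lung. Slc38a6, Slc38a7 and Slc38a9, the last a lysosomal arginine sensor, were not called in any tissue.

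The facilitative Slc43 carriers and the proton-coupled Slc36 carriers completed the set. Slc43a3 was 3.64 ± 0.55 log2 units higher in heart and 5.84 ± 0.72 lower in brain, with 311-488 CPM in heart and 3.93-6.21 CPM in brain. In lung it read 44, 85.8, 53.5 and 901 CPM, the last in replicate 4, and 183, 505, 498 and 696 CPM at 168 hr. The lung contrast of 2.19 ± 0.6 (adjusted p = 0.0053, edgeR) was 0.42 (adjusted p = 0.113) when the mouse was fitted as a block. Lung minus heart was -0.97 ± 0.71 (adjusted p = 0.247, edgeR). Slc43a2 (LAT4) was higher in brain and lung (0.71 ± 0.24 and 0.96 ± 0.25) and lower in heart (-1.66 ± 0.26). Slc36a2 was higher in lung by 2.13 ± 0.37 and Slc36a1 in brain by 1.04 ± 0.17, and Slc36a4 was not called in any tissue.

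The changes after LPS are those from the 0 hr libraries of the same tissue. In brain 52 members had enough counts. At 6 hr 2 were higher and 5 lower, while 4.21% of all genes tested were higher and 2.23% lower, and at 24 hr 4 were higher and 7 lower against 6.52% and 4.66%. At 48 hr 3 were higher and 3 lower against 8.11% and 6.12%. No member passed edgeR's test at 72 hr, where 2.98% of all genes were higher and 0.546% lower, or at 168 hr, where 0% were higher and 0% lower. At these last 2 times 5 and 4 members had an unadjusted p under 0.05, DESeq2 called 2 and 0, and limma-voom 0 and 0. The call at 6 hr needed the covariate for the series of file names (0 members without it), and it was 8 members without replicate 6 and 4 without replicate 3. At 24 hr the count was 7 without replicate 1 of that time, and at 48 hr 3 without replicate 1 of 0 hr. With another scaling (RLE) the 24 hr split was 7 higher and 7 lower.

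Slc7a5, the member with the highest level in brain ECs at 0 hr, fell after LPS. It read 97.4, 91.5, 87.9, 130 and 652 CPM at 6 hr, against 524-807 CPM at 0 hr. Of the 5 libraries 4 lay below every control and replicate 6 among the controls. All 4 libraries at 24 hr also lay below every control, at 80.8, 94.8, 71.9 and 64.5 CPM. The log2 fold changes were -1.74 ± 0.48 at 6 hr (adjusted p = 0.0258, edgeR), or -2.88 without replicate 6, and -2.6 ± 0.59 at 24 hr (adjusted p = 0.00631). At 48 hr the libraries ran from 75.4 to 425 CPM, all below the controls, and the change of -1.33 ± 0.45 had an adjusted p of 0.0503. At 72 hr 1 of 4 libraries was low (116 CPM against 498-661 CPM), and at 168 hr the 4 libraries lay at 807-1020 CPM. Within file series 2, which holds 3 controls and 4 of the 6 hr libraries, the 6 hr difference of mean log2 CPM was -2.51, and within series 1 (2 controls against replicate 6) it was -0.26. The 6 hr call was lost without 1 of brain replicates 1 to 4 at 6 hr or replicate 4 at 0 hr (adjusted p of 0.0506 to 0.0817).

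The heavy chain was not called in brain at these times. Slc3a2 stood at 329-454 CPM at 6 hr and 339-593 CPM at 24 hr, against 244-498 CPM at 0 hr, and its changes were 0.18 ± 0.2 and 0.14 ± 0.22 (adjusted p of 0.71 and 0.733, edgeR).

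The glutamine carriers Slc38a5 and Slc38a3 fell as well. Slc38a5 (ENSMUSG00000031170, chrX:8271133-8280179) read 1.85, 1.16, 3.21, 3.36 and 52.3 CPM at 6 hr and 6.95, 2.17, 1.75 and 2.42 CPM at 24 hr, against 31.1-99.6 CPM at 0 hr. Replicate 6 at 6 hr was again within the controls and the other 8 libraries below them. The log2 changes were -2.56 ± 0.68 and -3.71 ± 0.83 (adjusted p of 0.0208 and 0.0061, edgeR), and the 6 hr call was lost without 1 of replicates 1 to 4 (adjusted p of 0.0644 to 0.0714). Without replicate 6 the 6 hr change was -3.9. Slc38a3 fell from 184-286 CPM to 34.6-60.5 CPM in 4 libraries at 6 hr (210 CPM in replicate 6) and to 26.4-56.9 CPM at 24 hr. Its changes of -1.63 ± 0.4, -2.19 ± 0.47 and, at 48 hr, -1.34 ± 0.38 all passed the test. Only the call at 24 hr was kept in every alternative. Slc38a2 was lower in 4 libraries at 6 hr, with 73.7-152 CPM against 124-731 CPM in the controls and 755 CPM in replicate 6, but these ranges overlap and it was not called (-0.45 ± 0.36, adjusted p = 0.581).

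**Figure D2:**
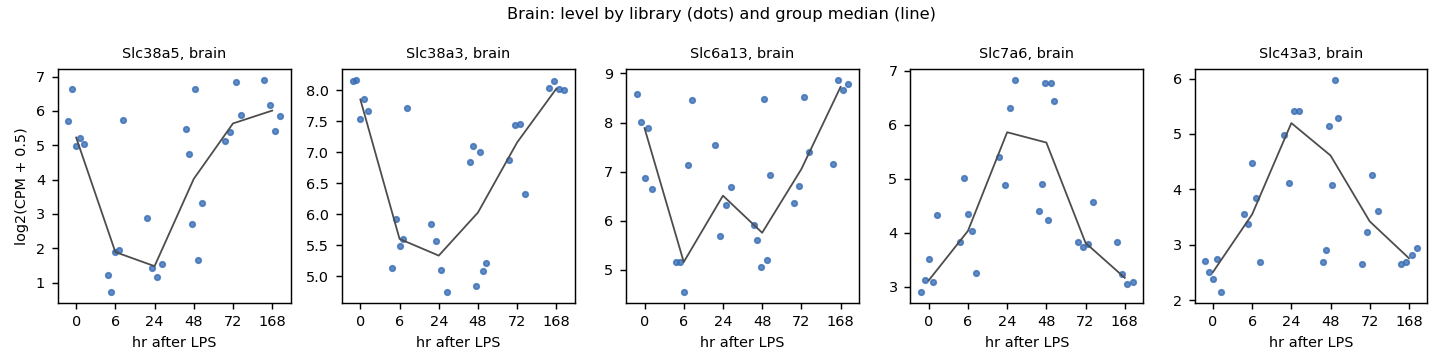
Levels of Slc38a5, Slc38a3, Slc6a13, Slc7a6 and Slc43a3 in brain ECs at 0, 6, 24, 48, 72 and 168 hr after LPS. The vertical axis is log2(CPM + 0.5), times are evenly spaced, points are libraries and lines join the group medians. Slc38a5 and Slc38a3 are low at 6 and 24 hr except in replicate 6 at 6 hr, Slc6a13 overlaps its controls, and Slc7a6 and Slc43a3 are highest at 24 and 48 hr.

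Other members fell in brain as well. The taurine transporter Slc6a6 read 69.3, 68.1, 65.6, 45.3 and 449 CPM at 6 hr and 102-226 CPM at 24 hr, against 234-1020 CPM at 0 hr. Its log2 changes were -1.79 ± 0.35 (adjusted p = 0.00201, edgeR) and -1.58 ± 0.4 (adjusted p = 0.0127), and without replicate 1 at 24 hr the later one was -1.47 (adjusted p = 0.0509). The arginine carrier Slc7a1 was lower at 6 hr by -0.77 ± 0.19, with 46.9-53.7 CPM in 4 libraries and 102 CPM in replicate 6 against 87.3-150 CPM. Slc6a9 was lower at 24 hr (-1.24 ± 0.39) and 48 hr (-1.11 ± 0.33), Slc38a7 and Slc36a1 at 24 hr (-0.84 ± 0.21 and -0.62 ± 0.14) and Slc7a4 at 48 hr (-1.04 ± 0.34).

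The members called higher in brain ECs at any time were 6 of the 52 tested. Slc7a6, which exchanges arginine for glutamine and sodium, read 41.8, 28.9, 79.2 and 113 CPM at 24 hr and 18.3-108 CPM at 48 hr, against 7-19.7 CPM at 0 hr. All 4 libraries at 24 hr and 5 of 6 at 48 hr lay above every control. Its changes were 2.02 ± 0.51 and 2.15 ± 0.47 (adjusted p of 0.013 and 0.00481, edgeR). The 79.2 and 113 CPM at 24 hr were of file series 4, which has no control. Within series 1 the difference of mean log2 CPM was 2.39 at 24 hr and 2.48 at 48 hr. Within series 2 it was 1.23 and 1. Slc43a3 rose from 3.93-6.21 CPM to 16.9-42.4 CPM at 24 hr, a log2 change of 1.96 ± 0.43 (adjusted p = 0.00512), and was also called at 6 hr (1.44 ± 0.39) and 48 hr (1.71 ± 0.41). The 6 hr call of Slc43a3 was lost under limma-voom, with the replicate block and without any 1 of 5 libraries (adjusted p of 0.0501 to 0.107). Slc1a5 rose at 24 hr by 1.12 ± 0.37, with 105, 41.2, 76.6 and 55.6 CPM against 14.9-29.8 CPM, and the call (adjusted p = 0.0478, edgeR) was lost without any 1 of 6 libraries (0.0722 to 0.183). Slc7a3 rose at 24 hr by 1.38 ± 0.29, with 10.8, 13.7, 10.3 and 3.86 CPM against 3.5-6.48 CPM at 0 hr. Slc7a7 rose at 48 hr by 0.99 ± 0.28, with 3.82-15.5 CPM against 2.51-5.26 CPM at 0 hr. Both overlap their controls. Slc6a14, a carrier of neutral and cationic amino acids, had 9.24, 6.85, 4.83 and 5.56 CPM in 4 libraries at 6 hr and 0.694 CPM in replicate 6, against 0-0.628 CPM at 0 hr, and its fitted change was 5.54 ± 1.01. Slc7a11 and Slc7a2 were not called at any time in brain in the fit of all kept libraries, with 6 hr changes of 0.78 ± 0.36 and 1.2 ± 0.38 (adjusted p of 0.236 and 0.0608) and, for Slc7a11 at 24 hr, 1.12 ± 0.38 (adjusted p = 0.0583). Without replicate 6 Slc7a2 was called at 6 hr (1.45, adjusted p = 0.0115). At 24 hr Slc7a11 read 1760 CPM in replicate 1 and 290-464 CPM in the other 3 libraries.

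Markers of other cells differed among the same brain libraries. Fibroblast markers, 4 genes, summed to 341-1100 CPM at 0 hr, 311-1080 CPM at 6 hr and 1210-4220 CPM at 24 hr. Neuronal markers summed to 1320-5560 CPM at 0 hr, 2210-6840 CPM at 6 hr and to 785-1260 CPM in 3 of the 4 libraries at 24 hr, with 5240 CPM in replicate 2. This split followed the file series. In series 1 the neuronal sums were 1320 and 1980 CPM at 0 hr and 1260 CPM at 24 hr. In series 2 they were 3750-5560 CPM at 0 hr and 5240 CPM at 24 hr. The sums of 785 and 964 CPM were of series 4, which has no 0 hr library. Endothelial markers summed to 2130-3690 CPM at 6 hr and 3220-5480 CPM at 24 hr, against 2920-5540 CPM at 0 hr. At 6 hr the endothelial sums of replicates 1, 3 and 4 (2130, 2490 and 2600 CPM) lay below every control. Neuronal sums of the same libraries (6240, 6840 and 5790 CPM) lay above every control. Replicates 2 and 6 lay within the controls for both (endothelial 3690 and 3650 CPM, neuronal 2980 and 2210 CPM). The endothelial sums at 24 hr overlapped those of 0 hr. The part of the other cells in the changes was not tested.

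In heart 34 members had enough counts. At 6 hr 11 of 34 were higher and 6 lower, while 22.4% of all genes tested were higher and 20.3% lower, so that the share of members lower (17.6%) was near that of all genes. At 24 hr 7 were higher and 4 lower against 9.07% and 7.11%, and at 48 hr 1 was higher and 1 lower against 3.08% and 1.11%. None passed edgeR's test at 72 hr, where 0.275% of all genes were higher and 0% lower, or at 168 hr (0% and 0%). At those times 2 and 3 members had an unadjusted p under 0.05, and DESeq2 and limma-voom called 0. Without replicate 5 at 6 hr 22 members were called at 6 hr. At 24 hr 3 were called without replicate 2 of that time, and 7 without replicate 1 of that time or replicate 3 of 0 hr.

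Both arginine carriers rose in heart. Slc7a2 (ENSMUSG00000031596, chr8:40862396-40922308) read 4.12, 4.41, 5.06, 7.14 and 7.86 CPM at 0 hr, 176, 133, 86.8, 173 and 9.56 CPM at 6 hr, and 82.2, 48.4, 88.1 and 76.9 CPM at 24 hr. Every library at 6 and 24 hr exceeded every control, replicate 5 only slightly. Its log2 changes of 4.38 ± 0.65 at 6 hr (adjusted p = 3.74e-05, edgeR) and 3.58 ± 0.67 at 24 hr (adjusted p = 0.00203) were the largest rises among heart members that had counts at 0 hr in all 5 libraries. Slc7a1 rose at 6 hr by 1.65 ± 0.34, with 193, 212, 150 and 164 CPM in 4 libraries and 48.5 CPM in replicate 5 against 35.5-56.9 CPM.

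Light chains and the heavy chain rose at 6 hr in heart. Slc7a5 read 97.9, 93.2, 76.5 and 104 CPM in 4 libraries at 6 hr and 10.7 CPM in replicate 5, against 13.6-24.8 CPM at 0 hr, a change of 2.05 ± 0.5 (adjusted p = 0.00279, edgeR). At 24 hr it lay at 26.3-57.5 CPM, above all controls, but was not called (0.83 ± 0.52, adjusted p = 0.253). Slc3a2 rose at 6 hr by 1.08 ± 0.34, from 109-137 CPM to 155-362 CPM with no overlap, and had adjusted p of 0.0524 at 24 hr and 0.0797 at 48 hr with changes of 1.06 ± 0.37 and 1.08 ± 0.35. Slc7a11, whose promoter holds 2 matches to the response element, rose from 0.0359-0.817 CPM to 5.9-9.66 CPM in 4 libraries at 6 hr (0.383 CPM in replicate 5) and to 3.43-5.4 CPM at 24 hr. Its changes were 4.22 ± 0.74 and 3.13 ± 0.74, the later one with an adjusted p of 0.00835 that became 0.0677 without replicate 2. Slc7a6 rose at 6 hr by 1.66 ± 0.47 and at 24 hr by 2.02 ± 0.5, to 41.3-107 CPM against 8.47-13.7 CPM, and the later call was likewise lost without replicate 2 (adjusted p = 0.0729). Slc7a7, the third gene with a printed promoter, was not called in heart at any time. The searched promoters of Slc7a1, Slc7a6, Slc3a2, Slc38a2, Slc1a1, Slc6a9 and Slc6a12, which were also called higher at 6 hr, held no match. Slc7a5 and Slc7a2 had no promoter among those searched. A link between matches and changes was not tested.

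Small neutral amino acid exchangers rose at different times. Slc1a4, with 1 match in its promoter, read 11.6, 18.1, 17.2 and 26.8 CPM in 4 libraries at 6 hr and 1.53 CPM in replicate 5, against 1.29-3.71 CPM, a change of 2.35 ± 0.47 (adjusted p = 0.000705, edgeR). At 24 hr it stood at 2.92-6.1 CPM and was not called (0.95 ± 0.51). Slc1a5 rose at 24 hr, to 77.2-91.3 CPM from 18.2-29.6 CPM (1.5 ± 0.31, adjusted p = 0.00382), and was not called at 6 hr (0.31 ± 0.28). Slc1a1, a neuronal and epithelial glutamate carrier, rose at 6 hr by 1.49 ± 0.41. The glycine transporter Slc6a9 rose at 6 hr by 1.44 ± 0.34 and at 24 hr by 1.31 ± 0.38 (adjusted p of 0.00219 and 0.0265), from 1.23-3.08 CPM to 2.9-8.18 CPM at 24 hr. Slc38a2 rose by 0.88 ± 0.31 and 1.07 ± 0.34 at 6 and 24 hr, calls that were lost in several fits, among them adjusted p of 0.0762 without replicate 2 at 6 hr and 0.149 without replicate 2 at 24 hr. Slc6a12 had no count in any heart library at 0 hr, under 0.5 CPM in each at 6 hr, 0.535-0.834 CPM at 24 hr and 0.0981-0.964 CPM at 48 hr. It was called higher at these 3 times, but its fitted changes depend on the prior count and are not given.

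Slc6a6 fell by more than any other member called at 6 hr in heart. Its libraries read 429, 484, 507, 774 and 416 CPM at 0 hr, 20, 17, 9.43, 23 and 441 CPM at 6 hr, and 125, 83.9, 73.7 and 45.4 CPM at 24 hr. Replicate 5 at 6 hr lay among the controls, and the other 8 libraries far below them. The changes were -2.92 ± 0.77 (adjusted p = 0.00505, edgeR) and -2.77 ± 0.84 (adjusted p = 0.0299), and the later call was lost without 1 of heart replicates 3 and 4 at 0 hr or 1, 2 and 5 at 24 hr (adjusted p of 0.0501 to 0.0883). Without replicate 5 the 6 hr change was -4.92. Within series 2, which leaves out replicate 5, the 6 hr difference of mean log2 CPM was -5.01, and within series 1 it was -0.05. Slc38a10 fell at 6 hr by -1.49 ± 0.3, to 18.1, 34.3, 30.3 and 43.5 CPM and 152 CPM in replicate 5, from 144-150 CPM. Within series 2 the difference of its mean log2 CPM was -2.28, and within series 1 it was 0.05. At 24 hr 3 libraries were back at 121-125 CPM and replicate 2 at 61.1 CPM. Smaller falls at 6 hr were those of Slc36a1 (-0.63 ± 0.2), Slc36a4 (-0.82 ± 0.17), Slc43a1 (-1.06 ± 0.36) and Slc6a8 (-0.56 ± 0.15). Slc38a3 fell at 24 hr (-1.37 ± 0.37) and 48 hr (-1.61 ± 0.31), and without replicate 5 was called at 6 hr as well (-0.85, adjusted p = 0.0392, edgeR). Slc38a7 fell at 24 hr (-0.8 ± 0.27). Slc1a3 was called lower at 24 hr, at 0-0.0535 CPM against 0.162-0.776 CPM. Its values at 24 hr lie under the floor of 3 counts (0.114-0.322 CPM), and its fitted change (-3.48 ± 1.06) depends on the prior count.

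**Figure D3:**
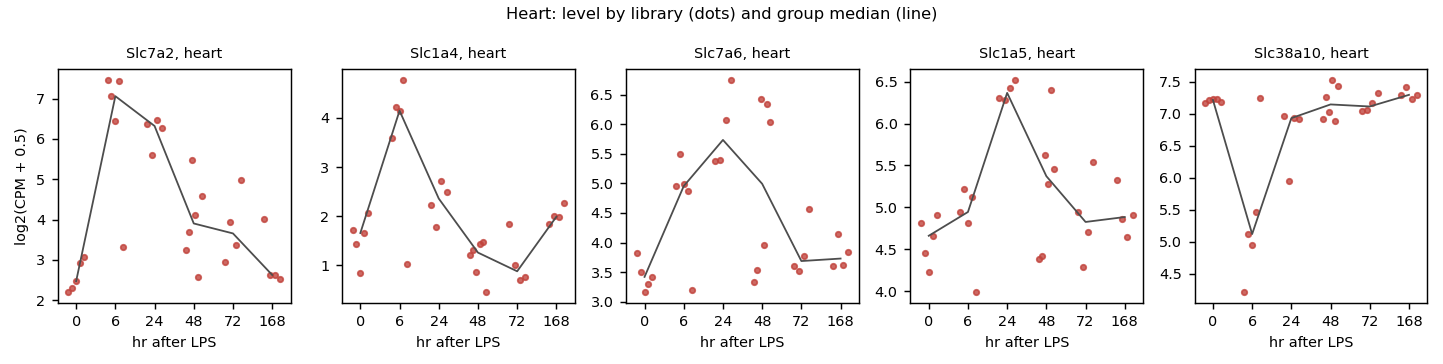
Levels of Slc7a2, Slc1a4, Slc7a6, Slc1a5 and Slc38a10 in heart ECs at 0, 6, 24, 48, 72 and 168 hr after LPS. The vertical axis is log2(CPM + 0.5), times are evenly spaced, points are libraries and lines join the group medians. Slc7a2, Slc1a4 and Slc7a6 are high in 4 of 5 libraries at 6 hr, Slc1a5 at 24 hr, and Slc38a10 is low in the same 4 libraries at 6 hr.

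The 4 heart libraries with these changes at 6 hr also differed in their markers. Endothelial markers summed to 6700-8730 CPM in them, to 14800 CPM in replicate 5 and to 13400-15600 CPM at 0 hr. The 10 neutrophil markers summed to 38.5-60.7 CPM in them, to 0.51 CPM in replicate 5 and to 0.61-0.941 CPM at 0 hr. The 8 cardiomyocyte markers summed to 4360-8390 CPM at 6 hr against 3300-6420 CPM. At 24 hr the endothelial sum was 11400-14300 CPM, the neutrophil sum 8.45-31.9 CPM and the cardiomyocyte sum 2660-3820 CPM. The 4 fibroblast markers summed to 487-955 CPM at 24 hr against 202-458 CPM at 0 hr, and the 10 neuronal markers to 3.37-6.22 CPM against 66.4-124 CPM, neither with overlap. Their part in the results was not tested.

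In lung 43 members were tested and the depth was low at 6 hr. At that time 5 were higher and 1 lower, while 2.56% of all genes tested were higher and 2.27% lower. At 24, 48, 72 and 168 hr no member passed edgeR's test, and the shares of all genes higher were 0.363%, 0.428%, 0.17% and 0% and lower 0.0117%, 0.17%, 0.0234% and 0.0117%. At these times 8, 12, 7 and 3 members had an unadjusted p under 0.05, DESeq2 called 0, 4, 1 and 0, and limma-voom 0 each time. The 6 hr count was 3 without the libraries that had under 10% of their reads on genes, which leaves replicate 3 alone at 6 hr. It was 2 without replicate 3 of 0 hr, 3 without replicate 2 of 0 hr and 15 without replicate 3 of 6 hr, which had 40128330 counts on genes against 284457-2745503 in the other 3. With RLE scaling, which shifted the median of all genes from -0.42 to -0.11, 8 were higher and 1 lower.

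The members higher in lung at 6 hr were the light chains Slc7a5, Slc7a6 and Slc7a11, the arginine carrier Slc7a1 and the astrocytic Slc1a2. Slc7a5 read 54.3, 24.7, 124 and 28.9 CPM against 4.14-12.7 CPM, every library above every control, but from 91, 17, 3941 and 1 counts. The lone count of replicate 4 lies under its floor. By the file names this library is of the mouse whose brain and heart libraries at 6 hr lay near the controls. Slc7a1 read 43, 65.5, 97.2 and 28.9 CPM (72, 45, 3094 and 1 counts) against 9.56-18.2 CPM, and Slc7a11 128, 524, 45.5 and 28.9 CPM (215, 360, 1447 and 1 counts) against 0.391-12.2 CPM. The log2 changes were 2.58 ± 0.68, 2.31 ± 0.63 and 5.32 ± 1.03 (adjusted p of 0.0247, 0.0283 and 0.0038, edgeR). Slc7a6 changed by 2.56 ± 0.76 with an adjusted p of 0.0462, on 17, 12, 490 and 1 counts, and was not called in most alternatives. The calls of Slc7a5 and Slc7a1 were lost with the replicate block (adjusted p of 0.0861 and 0.07), in fits of 0 and 6 hr alone (0.644 and 0.694) and without any 1 of several libraries (0.0502 to 0.0892), and that of Slc7a11 without libraries under 10% on genes (3.81, adjusted p = 0.118).

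Slc1a2 differed among the lung libraries of 6 hr. It read 2.98, 160, 1.01 and 116 CPM at 6 hr from 5, 110, 32 and 4 counts, against 0-2.7 CPM at 0 hr, and its change of 6.1 ± 1.48 became -0.31 without the libraries under 10% on genes. Replicate 2, which had most of those counts, also held 2630 CPM of cardiomyocyte markers, 441 CPM of neuronal and 416 CPM of oligodendrocytic markers, and replicate 3 held 128, 11.4 and 63.6 CPM. Slc6a2 fell from 139-493 CPM to 47.2 CPM in replicate 3 and to 0 counts in the other 3 libraries, a change of -5 ± 1.12 (adjusted p = 0.00952, edgeR) that was -3.56 (adjusted p = 0.291) when replicate 3 stood alone. At 24 hr it read 28.8 and 41.2 CPM and at 168 hr 58.4-500 CPM. Slc38a5 likewise had 8.23 CPM in replicate 3 and 0 counts in the others against 4.77-31.9 CPM, and was not called (-3.31 ± 1.06, adjusted p = 0.0624). Endothelial markers summed to 3190, 8310, 17400 and 3580 CPM in replicates 1 to 4, and neutrophil markers to 3850, 1900, 3460 and 28.9 CPM against 32-206 CPM at 0 hr. Their part in the lung results was not tested. Slc3a2, Slc6a6 and Slc1a5 were not called in lung at any time, with 6 hr changes of -0.94 ± 0.74, -0.07 ± 0.51 and 1.47 ± 0.68.

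Whether the response itself differed between tissues was tested as the interaction of tissue and time, with 2 degrees of freedom and no direction. By the file names, libraries of different tissues at a time often came from the same mouse, and the fit did not pair them. At 6 hr 21 of 52 members differed, against 18.3% of all genes tested. At 24 hr 14 differed against 4.11%, at 48 hr 12 against 3.55%, at 72 hr 0 against 0.772% and at 168 hr 0 against 0.00909%. At the last 2 times 12 and 6 members had an unadjusted p under 0.05, DESeq2 called 2 and 0, and limma-voom 0 and 0. Without the libraries under 10% on genes 7 members differed at 6 hr. Leaving out the libraries with replicate number 1, 2 or 4 gave 9, 11 and 12 at 6 hr, numbers 2 to 5 gave 9, 1, 8 and 9 at 24 hr, and numbers 2, 3, 4, 5 and 7 gave 5, 5, 7, 7 and 4 at 48 hr. By limma-voom 16, 4 and 2 members differed at 6, 24 and 48 hr.

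The 3 lowest p at 6 hr belonged to Slc7a1, Slc7a5 and Slc7a11. The change of Slc7a5 in brain was 3.76 log2 units below that in heart (brain minus heart -3.76, lung minus heart 0.77, adjusted p = 5.63e-05, edgeR), and the difference remained at 24 hr (-4.25 and 0.71, adjusted p = 0.000169) and 48 hr (-1.94 and 1.76, adjusted p = 0.00375). It was called in all 17 alternatives at each of the 3 times, none of which fitted the mouse as a block. For Slc7a1 the differences at 6 hr were -2.52 and 0.72 (adjusted p = 4.86e-05), and for Slc7a11 -3.74 and 1.48 (adjusted p = 0.000154), both called in the same 17 alternatives. Slc7a2 differed by -3.33 and -2.32 (adjusted p = 0.00542). Slc38a2 differed by -1.47 and 1.07 (adjusted p = 0.00537), Slc1a5 by -0.83 and 1.44 (adjusted p = 0.0219) and Slc3a2 by -0.93 and -2.17 (adjusted p = 0.0301). In lung, Slc3a2 read 858 CPM in replicate 4 of 0 hr and 0 CPM in replicate 4 of 6 hr. In the latter library 3 counts equal 86.7 CPM. Within file series 1, which holds both libraries, the lung difference in mean log2 CPM of Slc3a2 at 6 hr was -9.1. Within series 2 it was 0.23. Slc6a6, which fell in brain and heart, differed by 1.1 and 3.3 (adjusted p = 0.00828), and its lung libraries at 6 hr stood at 33.6-108 CPM against 55-78.1 CPM at 0 hr. Not every alternative kept the calls of Slc7a2, Slc38a2, Slc1a5, Slc3a2 and Slc6a6. The calls of Slc1a6 and Slc1a2 at 6 hr (adjusted p of 0.00152 and 0.00196) were lost under limma-voom (0.115 and 0.235), without libraries under 10% on genes (1 and 0.96) and without libraries of replicate number 2 (1 and 0.324), and Slc1a6 had 19 counts in lung replicate 2 and 0 in the other 3 lung libraries at 6 hr.

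**Figure D4:**
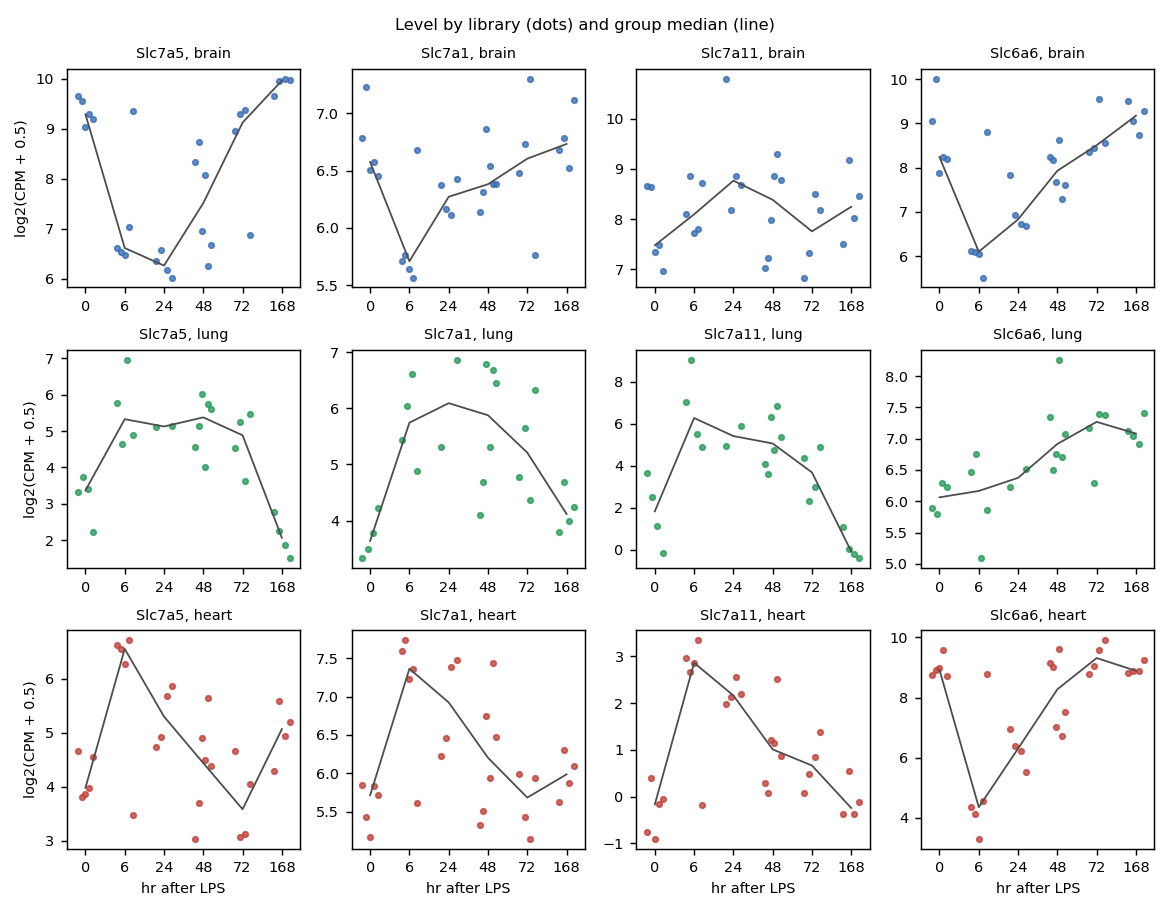
Levels of Slc7a5, Slc7a1, Slc7a11 and Slc6a6 in brain, lung and heart ECs from 0 to 168 hr after LPS. The vertical axis is log2(CPM + 0.5), times are evenly spaced, points are libraries and lines join the group medians. Slc7a5 falls in brain (64.5-94.8 CPM at 24 hr against 524-807 CPM at 0 hr) while it rises in heart at 6 hr, and Slc6a6 is low in brain and heart at 6 and 24 hr.

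**Figure D5:**
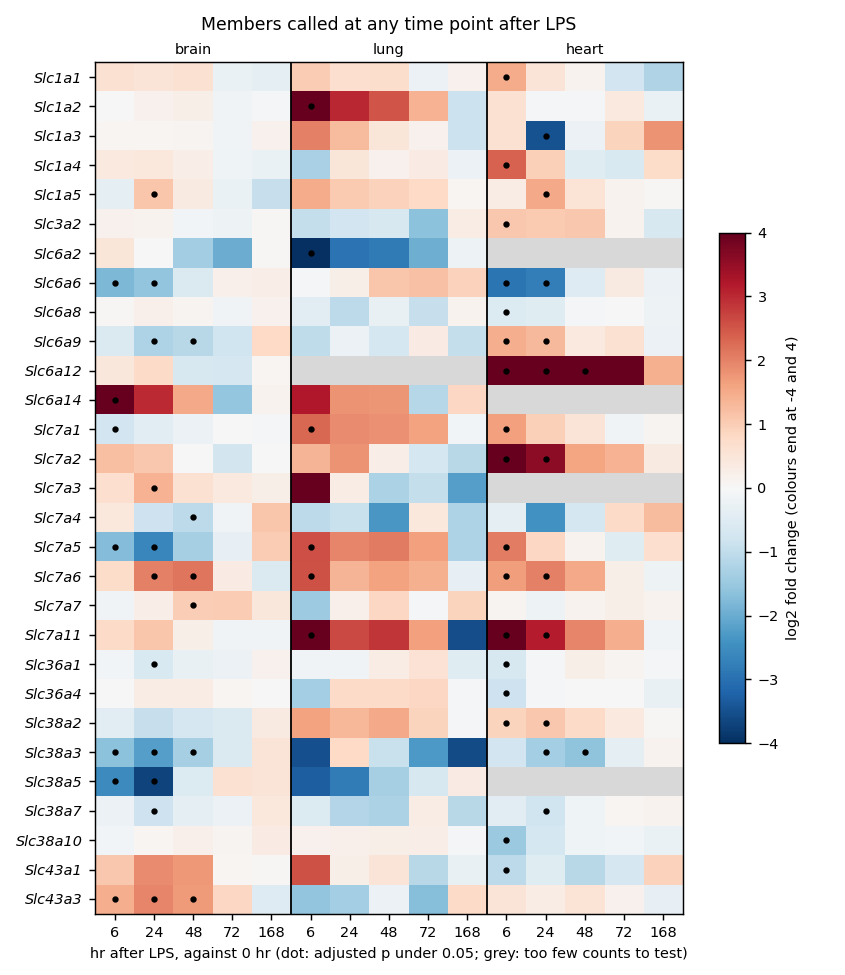
Log2 fold change against 0 hr of the 29 members called at any time in any tissue, with columns for each tissue and time and dots on called values. Colours run from -4 to 4, and grey cells were not tested. Dots lie at 6, 24 and 48 hr, and columns of 72 and 168 hr have none.

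Genes that work beside the transporters were counted from fixed lists. In heart at 6 hr 13 of 23 genes of the amino acid response were higher and 0 lower, all 12 aminoacyl-tRNA synthetases were higher, and of 18 tested genes of amino acid metabolism and glutathione 10 were higher and 3 lower, against the 22.4% and 20.3% of all genes. Their medians were 1.16, 1.6 and 0.64. The lowest p in the response list belonged to the stress factors Atf3 (3.76 ± 0.45), Cebpb (6.18 ± 0.79) and Nupr1 (2.81 ± 0.36), and among the synthetases to Wars (2.57 ± 0.37), which loads tryptophan, Tars (1.83 ± 0.3) and Nars (1.69 ± 0.3). Ido1, which breaks down tryptophan, rose by 4.22 ± 0.69, Cdo1, which oxidises cysteine, by 3.04 ± 0.51 and Bcat1, a branched-chain aminotransferase, by 3.02 ± 0.68. At 24 hr in heart 7, 2 and 4 genes of the 3 lists were higher and 0, 0 and 1 lower, against 9.07% and 7.11% of all genes.

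In brain at 6 hr 5 of 23 response genes, 0 of 12 synthetases and 1 of 18 metabolic genes were higher and none lower, against 4.21% and 2.23% of all genes. The response genes with the lowest p were Atf3 (2.81 ± 0.47), Cebpb (3.01 ± 0.61) and the mitochondrial folate enzyme Mthfd2 (2.02 ± 0.48), and the metabolic gene was Odc1 (2.47 ± 0.48), which makes putrescine from ornithine. Among the 12 synthetases 8 had an unadjusted p under 0.05 in edgeR's test, in which Aars, Tars and Gars had the lowest p (changes of 0.68 ± 0.22, 0.6 ± 0.19 and 0.77 ± 0.28, adjusted p of 0.0632, 0.0649 and 0.105). At 24 hr in brain 4, 4 and 2 genes were higher and 0, 0 and 1 lower, against 6.52% and 4.66%. In lung at 6 hr edgeR called 0 response genes and 0 synthetases, of which 4 and 0 had an unadjusted p under 0.05, and 1 metabolic gene was lower, against 2.56% of all genes higher and 2.27% lower, and the 3 response genes with the lowest p had adjusted p of 0.138 to 0.187. The lists were not compared with each other.

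The members most like Slc7a5 were ranked by the Pearson correlation of mean log2 levels over the 18 groups of tissue and time. Among the highest were Slc6a13 (0.87), Slc38a3 (0.86), Slc7a14 (0.85) and Slc6a17 (0.84), members that are high in brain. Over the 6 brain means alone the values were 0.99 for Slc38a3, 0.88 for Slc6a13, -0.05 for Slc7a14 and -0.15 for Slc6a17, so that 2 of these 4 followed the course after LPS as well. Slc38a5 and Slc6a6, with 0.56 and 0.27 over the 18 groups, had 0.94 and 0.89 over the brain means. By the file names, the means of different tissues at the same time share mice, and the values are a description. Slc6a13 itself read 22.9-140 CPM at 6 hr and 352 CPM in replicate 6, against 99-383 CPM at 0 hr, ranges that overlap, and it was not called in brain at any time.

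Counting without strand would merge reads of genes that overlap on opposite strands, and the strand setting is not given in the sources used here. Among members described above, exons of Slc6a6 overlap 117 of 8457 bases with such a gene, Slc7a2 635 of 9135, Slc38a10 367 of 6421, Slc1a2 189 of 13133, Slc43a2 922 of 10042, Slc7a7 232 of 3315 and Slc7a10 377 of 2111. Larger parts are shared by Slc1a1, with 2631 of 8257 bases, and Slc6a9, with up to 1429 of 5141 bases in 1 other gene. Slc7a5, Slc3a2, Slc7a1, Slc7a11, Slc38a3 and Slc38a5 have no such overlap in GENCODE.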

How the data were processed

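Endothelial ribosome-bound RNA was sequenced from RiboTagEC mice. The authors deposited raw gene counts per run, which the submitters' processing notes tie to STAR 2.4.2, mm10 and HTSeq 0.6.1. The strand setting and annotation release are not given in the sources used here. Runs were summed per library (217 runs, 98 libraries), and 18 libraries with under 3% of reads on genes were left out, which left 80. Rows that name no gene stayed out of all totals.

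Counts were tested with edgeR 4.0.16 (quasi-likelihood, TMM scaling, file-name series as a covariate since sequencing batches are not labelled) in R 4.3.3, with Benjamini-Hochberg adjustment over all genes tested and a call at 0.05. Contrasts were a tissue minus the other 2 tissues' mean at 0 hr, later times minus 0 hr in the same tissue, and the responses between tissues. The SE is the log2 change divided by the root of F. Levels are TMM-scaled CPM. DESeq2 1.42.0, limma-voom 3.58.1, other scalings, filters and left-out libraries were alternatives. Scripts were tested on simulated data. Nothing says that libraries came from separate mice in all cases, so p-values measure the spread between these libraries.

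The families and lists were chosen with earlier results of these data known; members then follow from the symbol. The genes named were up to 5 largest called rises per tissue at 0 hr where log2 CPM averaged 3 or more over all 0 hr libraries, the 5 largest called changes per tissue at 6, 24 or 48 hr where it averaged 1 or more in that tissue, the 5 lowest p of the interaction at 6 hr and 10 carriers given throughout; further members are named because each call was accounted for, after their values were seen. Results of 1 member are not reported here.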

Additional observations from a re-analysis of the deposited data

Results flagged for a closer look

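In groups of 4 to 10 libraries, a library whose gap to its nearest neighbour exceeded Dixon's 95% value was marked, which chance does in about 1 of 20 groups. This held for 28 of 245 groups tested over 21 members, and 6 of the 28 were replicate 6 of brain at 6 hr. That library read 652 CPM of Slc7a5 (nearest 130), 102 of Slc7a1 (53.7), 449 of Slc6a6 (69.3), 755 of Slc38a2 (152), 52.3 of Slc38a5 (3.36) and 210 of Slc38a3 (60.5). Replicate 1 of brain at 24 hr read 1760 CPM of Slc7a11 (464), 226 of Slc6a6 (121) and 6.95 of Slc38a5 (2.42). Replicate 5 of heart at 6 hr read 441 CPM of Slc6a6 (23) and 152 of Slc38a10 (43.5).

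Other brain libraries that stood apart were replicate 1 at 168 hr with 807 CPM of Slc7a5 (994), replicate 2 at 6 hr with 2730 of Slc1a2 (966) and 99.5 of Slc6a8 (76.2), replicate 3 at 72 hr with 746 of Slc6a6 (376) and replicate 5 at 72 hr with 23.2 of Slc7a6 (13.8). In heart they were replicate 4 at 0 hr with 774 CPM of Slc6a6 (507), replicate 2 at 24 hr with 366 of Slc43a3 (624) and 61.1 of Slc38a10 (121), replicate 5 at 168 hr with 614 of Slc6a6 (477) and replicate 1 at 168 hr with 15.7 of Slc7a2 (5.69). In lung they were replicate 4 at 0 hr with 858 CPM of Slc3a2 (109) and 901 of Slc43a3 (85.8), replicate 3 at 6 hr with 47.2 of Slc6a2 (0), replicate 4 at 48 hr with 306 of Slc6a6 (163) and 412 of Slc43a3 (200), and replicate 1 at 168 hr with 99.8 of Slc1a5 (30.6) and 43 of Slc43a2 (23.2).

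The response at 6 hr differed between tissues, by the interaction test of edgeR, for Slc7a1 (adjusted p = 4.86e-05), Slc7a5 (5.63e-05), Slc7a11 (0.000154), Slc1a6 (0.00152), Slc1a2 (0.00196), Slc38a2 (0.00537), Slc7a2 (0.00542), Slc6a6 (0.00828), Slc1a5 (0.0219) and Slc3a2 (0.0301). Of these, only the calls of Slc7a1, Slc7a5 and Slc7a11 were kept in every alternative.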

How the results depend on the processing

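Of 278 values of named members 90 were called, and 46 of these kept direction and call in every alternative. The cause of the changes listed here was not tested. At 0 hr, requiring a difference from each of the other 2 tissues gave 13 members for lung and 16 for heart. In brain the count at 6 hr was 0 with no series covariate, at 24 hr 17 with no filter and 18 with the time point alone, and at 48 hr 0 with the time point alone. At 72 hr in brain it was 2 by DESeq2, 1 with no filter, 1 with the replicate block, 3 with the time point alone and 2 without the series 1 libraries at 6 hr. In lung at 6 hr it was 11 by DESeq2, 10 with no filter, 3 with the replicate block, 2 with the time point alone and 3 without libraries under 10% on genes. In lung at 48 hr these were 4 by DESeq2, 3 with no filter, 1 with no covariate, 1 alone and 3 without libraries under 10%, at 72 hr 1 by DESeq2 and at 168 hr 1 with no filter. In heart at 48 hr they were 7 by DESeq2, 7 with no filter, 9 with no covariate, 1 with the replicate block, 1 alone and 4 without the series 1 libraries, and at 72 hr 1 with no filter. Interaction counts were 7 at 6 hr without libraries under 10%, 4 by limma-voom and 6 with no covariate at 24 hr, 2 by limma-voom, 20 with no filter and 7 with the replicate block at 48 hr, 2 by DESeq2, 9 with no filter and 1 with no covariate at 72 hr, and 4 with no filter and 1 with libraries under 3% kept at 168 hr.

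Leaving out 1 library gave 35 to 42 members at 0 hr for brain, 29 to 37 for heart and 27 to 33 for lung. After LPS it gave 4 to 8, 7 to 12, 3 to 9, 0 to 1 and 0 in brain at the 5 times, 14 to 22, 3 to 10, 1 to 4, 0 to 1 and 0 in heart, and 2 to 15 and then 0 in lung. Leaving out a replicate number gave 9 to 21, 1 to 15, 4 to 8, 0 to 1 and 0 to 3 interactions. Slc3a2 at 0 hr in lung reversed to -1.13 with the mouse as block and ran from -1.12 (without replicate 4) to 0.39 when 1 library was left out, and Slc1a2 in lung at 6 hr to -0.31 without libraries under 10%. Equal replicate numbers at 0 hr gave correlations of -0.21 to 0.13 over 13 pairs, 1 above 0.1. Pairs of 1 mouse by the file names, which include all 5 equal numbers of brain and heart, gave -0.13 to 0.2 over 11 pairs, 4 above 0.1. With the mouse as block 41, 32 and 34 members were called at 0 hr in brain, lung and heart, and with the replicate block 40, 30 and 32. RLE scaling shifted the median of all genes by 0.31 in lung at 6 hr and 0.15 at 168 hr. Leaving out series 1 or libraries under 10% was chosen after seeing the data. Depth limits lung at 6 hr, where 3 counts equal 0.0942 to 86.7 CPM.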
